A study of Schizosaccharomyces pombe with 12 samples.

Results

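The core environmental stress genes examined here are 8 protein-coding genes of the fission yeast Schizosaccharomyces pombe, chosen by identifier for their known place in the general stress response, with earlier results of these data known. They are hsp9 (SPAP8A3.04c), ctt1 (SPCC757.07c), gpx1 (SPBC32F12.03c), tps1 (SPAC328.03), ntp1 (SPBC660.07), gpd1 (SPBC215.05), atf1 (SPBC29B5.01) and pyp2 (SPAC19D5.01), 8 of the 6986 genes in the table. All 8 of them were among the 6189 genes with enough counts to be tested.

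RNA was measured by stranded sequencing of poly(A)-selected RNA from log phase cultures in vegetative growth grown in rich YES medium at 30 °C, and the labels name no stress treatment. There were 4 genotypes with 3 replicate libraries each, 12 in all, and 1 lab strain per genotype. The wild type (WT) served as control. In ssu72-C13S the altered protein is Ssu72, a phosphatase of RNA 3′ processing whose substrate is the RNA polymerase II tail. In asp1-H397A it is Asp1, which both makes inositol pyrophosphates and breaks them down, and the altered residue lies in the part that breaks them down. The strain asp1-H397A ssu72-C13S aps1∆ joins these alleles with one labelled as a deletion of aps1, the gene of a further enzyme that degrades inositol pyrophosphates; it is the triple mutant of the text below. No strain with aps1∆ alone was among these samples, so in the triple mutant its effect cannot be told apart from the combination of the 2 alleles. The labels do not say how separate the replicate cultures were, so the p-values measure the spread between these libraries.

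In fission yeast, very different stresses (heat, oxidants, high osmolarity, starvation) switch on a common set of genes. The signal runs through a cascade of kinases to the stress-activated MAP kinase Sty1, which phosphorylates the transcription factor Atf1 in the nucleus. Atf1 then drives genes for protectants and detoxifying enzymes, and also a phosphatase that turns Sty1 off again. Of the 8 genes, hsp9 encodes a small heat shock protein, ctt1 catalase and gpx1 glutathione peroxidase. The genes tps1 and ntp1 encode trehalose-6-phosphate synthase and neutral trehalase, which make and break down the protectant sugar trehalose, and gpd1 encodes the glycerol-3-phosphate dehydrogenase that supplies glycerol under osmotic stress. The gene atf1 encodes the transcription factor itself, and pyp2 a tyrosine phosphatase that acts on Sty1.

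Total counts ranged from 23115806 to 29124916 per library, so that the limit set by 0 counts (3 counts, counting error only) was 0.103 to 0.130 CPM, where CPM are counts scaled to a common library size. Levels below are CPM scaled by TMM, a method that equalises the bulk of genes between libraries. The aps1 gene stood at 112 ± 9.20 CPM in WT, 106 ± 3.28 CPM in asp1-H397A and 38.9 ± 2.08 CPM in the strain labelled aps1∆ (SD, n = 3 each; log2 −1.53 against WT, adjusted p 1.67e-09). Its reads were thus fewer there but not absent, and whether they come from outside the deleted stretch was not tested. The annotation places SPNCRNA.620 opposite aps1, at 1.51 CPM in WT and 10.2 CPM in the triple mutant. Since the strand setting of the counting is not given, the aps1 counts carry that uncertainty. In ssu72-C13S, which is not labelled with that deletion, aps1 was also lower than in WT, at 77.9 ± 1.30 CPM (SD, n = 3; log2 −0.53, adjusted p 2.25e-05). For a point mutation, the level of asp1 or ssu72 mRNA does not check the label. Both levels did differ between strains. In ssu72-C13S, asp1-H397A and the triple mutant, asp1 had log2 values of −0.40, 0.92 and 0.63 against WT. Those of ssu72 were −0.52, 0.58 and 0.72, and all 3 values of either gene passed the threshold. In the annotation yrs1 overlaps asp1 on the same strand. Its level was 158, 176, 244 and 231 CPM in WT, ssu72-C13S, asp1-H397A and the triple mutant. Opposite asp1 lies SPNCRNA.1144, at 0.692, 0.695, 11.5 and 18.3 CPM in the same order. Reads in the shared stretches may belong to either gene, so the asp1 counts carry that uncertainty. The ssu72 level was 10.5 ± 0.860 CPM in ssu72-C13S and 24.8 ± 3.71 CPM in the triple mutant (SD, n = 3). The cause was not tested. Within their genotypes, asp1-H397A replicate 3 and triple mutant replicate 1 stood apart, with an SD of 0.248 and 0.215 in the log2 deviation from the genotype mean over all genes, against 0.107 to 0.172 in the other 10 libraries. Calls on the 8 genes that changed without these 2 libraries are given beside the values they touch. All 12 libraries share 1 estimate of the spread, and these 2 were picked for their spread. Leaving them out raised the calls over all genes from 3384 to 4507 in ssu72-C13S against WT. In asp1-H397A against WT the calls rose from 2747 to 4537. A call gained that way is therefore not read as a further result. Upper-quartile in place of TMM scaling moved the median of all genes by −0.14 (log2) for asp1-H397A against WT and by −0.16 for asp1-H397A against ssu72-C13S. Of the genes called, 58.1% were higher in asp1-H397A than in WT with TMM and 32.2% with upper quartiles. These shares were 50.4% and 40.4% for the triple mutant against WT, 51.2% and 40.1% against ssu72-C13S, and 42.7% and 58.6% against asp1-H397A. Between asp1-H397A and ssu72-C13S they were 54.9% and 33.7%.

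The 8 genes did not move as one block. In ssu72-C13S, 5 of them rose and 1 fell, led by gpd1 (2.37-fold higher). In asp1-H397A, hsp9 fell 3.54-fold, gpx1 and pyp2 fell, and gpd1 and atf1 rose. In the triple mutant 6 of the 8 fell, with hsp9 8.95-fold and ctt1 3.36-fold below WT, while gpd1 was 1.75-fold above it. In such bulk samples, fewer cells that express a gene and less RNA per cell cannot be told apart. As background, 25.5% of all genes tested rose and 29.1% fell in ssu72-C13S, 25.8% rose and 18.6% fell in asp1-H397A, and 26.2% rose and 25.7% fell in the triple mutant. With so many genes called in each strain, a count of members is read against those shares, and ranks among all genes tested show how far a member's change lies from the middle. Mutant libraries that do not overlap WT were common too. In ssu72-C13S 34.4% of all genes tested lay wholly above WT and 39.7% wholly below. These shares were 28.6% and 20.7% in asp1-H397A, and 29.3% and 29.7% in the triple mutant. Statements below that a mutant does not overlap WT are read against them. For the triple mutant against WT, hsp9 had the 27th, ctt1 the 173rd, tps1 the 470th, gpx1 the 511th, ntp1 the 1040th and pyp2 the 1304th lowest log2 fold change of 6189. From the highest, gpd1 ranked 350th and atf1 2634th. The median log2 fold change of the 8 members was 0.39, −0.20 and −0.72 in the 3 mutants, against −0.04, −0.00 and −0.01 for all genes.

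**Figure D1:**
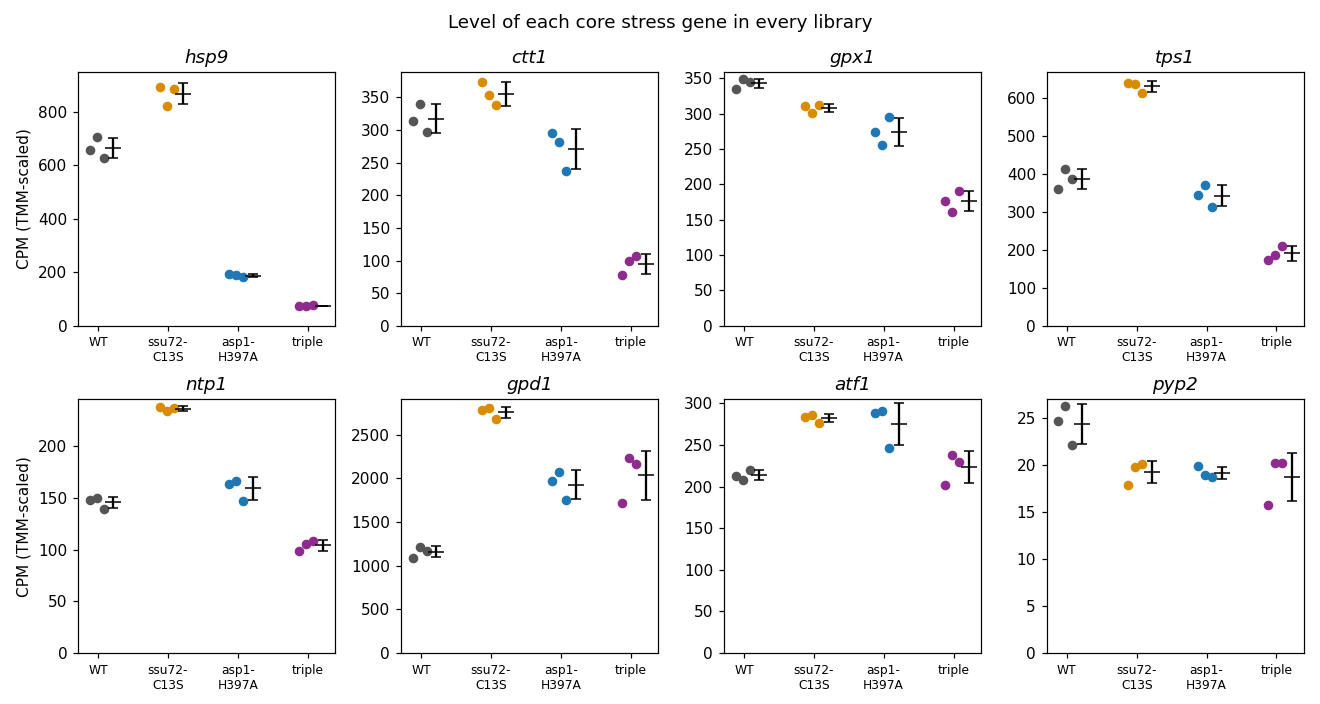
Level of the 8 genes in every library, in TMM-scaled CPM on linear axes that start at 0. Points are libraries in replicate order, and the black marks give the mean and SD of the 3 libraries of a genotype. The hsp9 points drop from 628 or more CPM in WT to between 72.7 and 75.9 CPM in the triple mutant, whereas gpd1 is above WT in every mutant library.

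Hsp9 is a small heat shock protein that is abundant in stressed and stationary-phase cells. Its level was 659, 704 and 628 CPM in the WT libraries and 894, 821 and 886 CPM in ssu72-C13S. It was 193, 188 and 181 CPM in asp1-H397A and 73.7, 72.7 and 75.9 CPM in the triple mutant. The 4 genotypes were fully separated from each other, in the order ssu72-C13S, WT, asp1-H397A, triple mutant. Against WT the log2 fold change was 0.39 in ssu72-C13S (SE 0.0607, adjusted p 0.000125), −1.82 in asp1-H397A (SE 0.0629, adjusted p 3.30e-10) and −3.16 for the triple mutant (SE 0.0668, adjusted p 3.61e-13). Ranked from the lowest log2 fold change of 6189 genes, hsp9 stood 82nd for asp1-H397A and 27th for the triple mutant. The triple mutant was also below asp1-H397A, by log2 −1.34 (adjusted p 5.28e-09). Against ssu72-C13S, with which it shares the ssu72 allele, its hsp9 level was 11.7-fold lower, the 12th lowest value of all genes in that comparison. The annotation places the non-coding SPNCRNA.1071 on the same strand as hsp9, but at 0.508 to 2.45 CPM in the genotype means it held few counts.

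Catalase and glutathione peroxidase remove peroxides. The catalase gene ctt1 was at 315, 341 and 297 CPM in WT, 374, 354 and 338 CPM in ssu72-C13S, 296, 281 and 237 CPM in asp1-H397A and 77.3, 99.5 and 107 CPM in the triple mutant. The triple mutant libraries lay far below the other 9, and those of WT and ssu72-C13S overlapped. The log2 fold change against WT was −1.75 in the triple mutant (SE 0.113, adjusted p 3.82e-08), the 173rd lowest of 6189. The single mutants did not pass the threshold, with 0.16 in ssu72-C13S (SE 0.108, adjusted p 0.219) and −0.23 in asp1-H397A (SE 0.108, adjusted p 0.103). Without asp1-H397A replicate 3 and triple mutant replicate 1 both passed, at 0.16 (adjusted p 0.00701) and −0.14 (adjusted p 0.0346). The asp1-H397A value also passed with upper quartiles (log2 −0.37, adjusted p 0.00866) and without triple mutant replicate 1 (log2 −0.23, adjusted p 0.0297), and the ssu72-C13S value in a fit of that strain and WT alone (log2 0.19, adjusted p 0.00341). The difference between the triple mutant and asp1-H397A, log2 −1.52 (adjusted p 3.60e-07), ranked 71st from the lowest of all genes, and that of hsp9 90th.

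The glutathione peroxidase gene gpx1 was at 336, 349 and 345 CPM in WT and 311, 302 and 312 CPM in ssu72-C13S. It was 274, 255 and 295 CPM in asp1-H397A and 177, 162 and 190 CPM in the triple mutant. All libraries of each mutant lay below those of WT, and the triple mutant was the lowest. The log2 fold change was −0.32 in asp1-H397A (SE 0.0676, adjusted p 0.00181) and −0.96 for the triple mutant (SE 0.0685, adjusted p 9.49e-08). In ssu72-C13S the value was −0.15 (SE 0.0675, adjusted p 0.0676), which passed the threshold when the 2 libraries that stood apart were left out (adjusted p 0.00791), without asp1-H397A replicate 3 alone (adjusted p 0.0312) and in a fit of ssu72-C13S and WT alone (log2 −0.12, adjusted p 0.00957). Of the 8 genes, gpx1 and pyp2 alone had negative values in all 3 mutants.

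The trehalose genes are considered together, since their enzymes act in opposite directions. The synthase gene tps1 was at 361, 413 and 387 CPM in WT, 641, 638 and 615 CPM in ssu72-C13S, 346, 371 and 314 CPM for asp1-H397A and 173, 188 and 211 CPM for the triple mutant. The trehalase gene ntp1 was at 148, 150 and 139 CPM in WT, 238, 234 and 237 CPM in ssu72-C13S, 164, 167 and 147 CPM in asp1-H397A and 98.1, 106 and 108 CPM in the triple mutant. For both genes every ssu72-C13S library was above and every triple mutant library below all others. The asp1-H397A libraries overlapped those of WT with TMM scaling, but lay below them when scaled by library total. In ssu72-C13S the log2 fold changes were nearly equal, 0.71 for tps1 (SE 0.0818, adjusted p 8.63e-06) and 0.70 for ntp1 (SE 0.0614, adjusted p 6.93e-07). In the triple mutant tps1 fell by 1.02 on the log2 scale (SE 0.0828, adjusted p 3.10e-07) and ntp1 by 0.48 (SE 0.0620, adjusted p 2.14e-05). The asp1-H397A values were −0.17 for tps1 (SE 0.0816, adjusted p 0.102) and 0.13 for ntp1 (SE 0.0614, adjusted p 0.107), neither past the threshold. Both depended on the scaling: with upper quartiles tps1 passed (log2 −0.32, adjusted p 0.00407) and ntp1 changed sign (log2 −0.02, adjusted p 0.794). Without the 2 libraries that stood apart ntp1 passed at log2 0.18 (adjusted p 0.000601), as it did without asp1-H397A replicate 3 alone (adjusted p 0.0108).

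The ratio of tps1 to ntp1 counts within a library does not depend on library scaling. It ranged from 2.45 to 2.78 in WT and from 2.60 to 2.73 in ssu72-C13S, from 2.12 to 2.22 in asp1-H397A and from 1.77 to 1.95 in the triple mutant. The 2 strains with asp1-H397A lay below the other 2 without overlap, and the triple mutant below asp1-H397A. An exact permutation test of 3 libraries against 3 could not give a two-sided p below 0.10, so none was run. The annotation places dbl4 on the same strand as tps1 and overlapping it. Its level was 66.9 CPM in WT and 33.4 CPM in ssu72-C13S, and it stood at 53.5 CPM in asp1-H397A and at 32.8 CPM in the triple mutant. Reads in the shared stretch may belong to either gene, so the tps1 counts carry that uncertainty.

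Glycerol-3-phosphate dehydrogenase provides the precursor of glycerol, the osmolyte of fission yeast. Its gene gpd1 was at 1093, 1218 and 1171 CPM in WT and 2780, 2806 and 2683 CPM in ssu72-C13S. It was 1969, 2068 and 1748 CPM in asp1-H397A and 1717, 2233 and 2160 CPM in the triple mutant. All 9 mutant libraries were above all WT libraries, and those of asp1-H397A and the triple mutant overlapped. The log2 fold change was 1.25 in ssu72-C13S (SE 0.0992, adjusted p 2.85e-07), 0.73 in asp1-H397A (SE 0.0983, adjusted p 5.97e-05) and 0.81 for the triple mutant (SE 0.0984, adjusted p 1.33e-05). It was the only member past the threshold above WT in all 3 mutants. The triple mutant was below ssu72-C13S (log2 −0.44, adjusted p 0.00182) and did not differ past the threshold from asp1-H397A (log2 0.08, SE 0.0978, adjusted p 0.562). For the paralogue gpd2 the values were log2 0.23 in ssu72-C13S (adjusted p 0.0349), −0.31 in asp1-H397A (adjusted p 0.0103) and −0.06 for the triple mutant (adjusted p 0.612).

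The regulators come last. The gene of the transcription factor Atf1 was at 213, 208 and 220.0 CPM in WT and 283, 286 and 276 CPM in ssu72-C13S. It was 288, 291 and 246 CPM in asp1-H397A and 202, 238 and 230 CPM in the triple mutant. Both single mutants were above WT without overlap. The triple mutant overlapped WT with TMM scaling, but lay below it when scaled by library total. The log2 fold change was 0.40 in ssu72-C13S (SE 0.0745, adjusted p 0.000487), 0.36 in asp1-H397A (SE 0.0745, adjusted p 0.00149) and 0.06 for the triple mutant (SE 0.0746, adjusted p 0.496). The triple mutant value turned to −0.01 under upper-quartile scaling (adjusted p 0.916) and passed the threshold at 0.13 without the 2 libraries that stood apart (adjusted p 0.00788). The triple mutant was below both single mutants, by log2 −0.34 against ssu72-C13S (adjusted p 0.00167) and −0.30 against asp1-H397A (adjusted p 0.00681). The call against asp1-H397A was lost without asp1-H397A replicate 1 (log2 −0.23, adjusted p 0.115) and in a fit of these 2 genotypes alone (adjusted p 0.0880).

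The phosphatase gene pyp2 was at 24.7, 26.3 and 22.2 CPM in WT, 17.9, 19.8 and 20.2 CPM in ssu72-C13S, 19.9, 18.9 and 18.7 CPM in asp1-H397A and 15.8, 20.2 and 20.3 CPM in the triple mutant. All mutant libraries were below all WT libraries, and with TMM scaling the 3 mutants overlapped each other. The log2 fold changes were −0.34 in ssu72-C13S (SE 0.108, adjusted p 0.0166), −0.35 in asp1-H397A (SE 0.108, adjusted p 0.0187) and −0.38 for the triple mutant (SE 0.109, adjusted p 0.00961). The ssu72-C13S call was lost without WT replicate 2 (adjusted p 0.0718) or ssu72-C13S replicate 1 (adjusted p 0.0764). The asp1-H397A call was lost without WT replicate 1 (adjusted p 0.0563), WT replicate 2 (adjusted p 0.0758) or asp1-H397A replicate 2 (adjusted p 0.0532). In the annotation emc10 lies opposite pyp2, at 86.5 to 115 CPM in the genotype means, which is several times the pyp2 level. Whether the counting used strand is not given in the sources used here, so reads from the 2 strands may not be told apart.

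**Figure D2:**
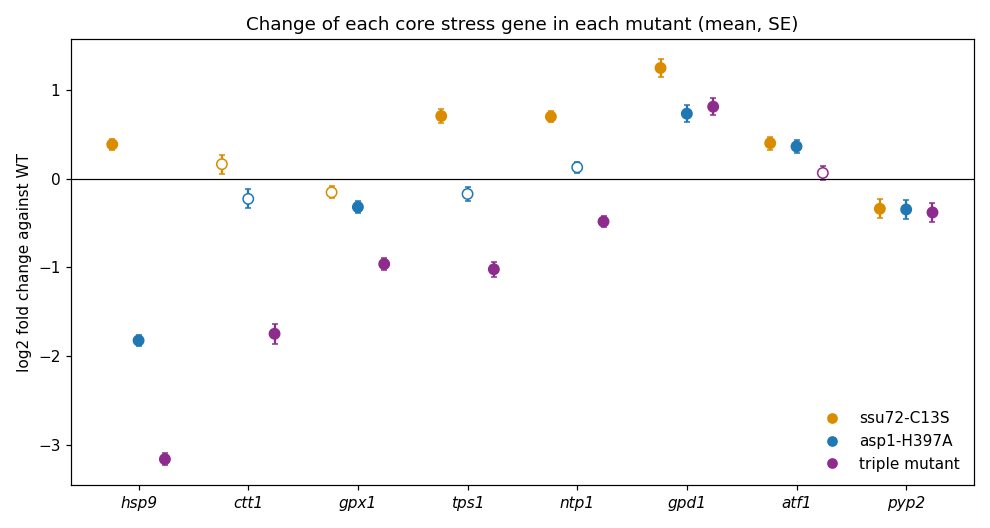
Log2 fold change of each gene in each mutant against WT, with the standard error as bars. Filled points passed an adjusted p of 0.05 and open points did not. The triple mutant values of hsp9 (−3.16) and ctt1 (−1.75) are the lowest, and gpd1 is above 0 in all 3 mutants.

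The order of the genes by level also shifted, as levels per length show (RPKM, CPM per kilobase of exon in the RefSeq annotation). In WT the order by RPKM level was hsp9 at 922, gpd1 at 653, gpx1 at 473, tps1 at 180, ctt1 at 146, atf1 at 76.6, ntp1 at 47.5 and pyp2 at 9.58. The SD of the 3 WT libraries was 1.96% to 8.61% of these means, and no neighbours in this order overlapped. The triple mutant had gpd1 first at 1146 ± 157 RPKM, then gpx1 at 243 ± 19.6 and hsp9 at 103 ± 2.31 (SD, n = 3). Next came tps1 at 88.4 ± 8.91 and atf1 at 80.0 ± 6.77 RPKM, whose libraries overlapped. Of all counts assigned to the 8 genes, gpd1 took 34.7% to 36.5% in the WT libraries, 50.5% ± 0.756 in ssu72-C13S (SD, n = 3), 54.9% to 56.8% in asp1-H397A and 67.8% to 71.6% in the triple mutant. The ratio of hsp9 to gpd1 counts, which does not depend on library scaling, was 0.537 to 0.603 in WT, 0.293 to 0.330 in ssu72-C13S, 0.0909 to 0.103 in asp1-H397A and 0.0326 to 0.0429 in the triple mutant. In both measures the 4 genotypes did not overlap.

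The mutants were next compared with each other, which asks how the ssu72 and asp1 alleles differ and how the strain with all 3 alleles compares with each. Between asp1-H397A and ssu72-C13S, 5 of the 8 genes were lower in asp1-H397A and 0 higher, where 24.3% of all genes were lower and 29.7% higher. The lower genes were hsp9 (log2 −2.21, adjusted p 1.81e-11), tps1 (−0.88, adjusted p 8.98e-07), ntp1 (−0.57, adjusted p 3.32e-06), gpd1 (−0.52, adjusted p 0.000555) and ctt1 (−0.39, adjusted p 0.00751). For gpx1 the value of −0.17 (adjusted p 0.0524) passed in several other fits, among them that with the replicate number as a block (log2 −0.17, adjusted p 0.0408), DESeq2 (log2 −0.20, adjusted p 0.0141) and the one without the 2 libraries that stood apart (log2 −0.22, adjusted p 0.00155). For atf1 the value of −0.04 (adjusted p 0.691) passed with upper quartiles (log2 −0.20, adjusted p 0.0173) and was 0.04 without the 2 libraries that stood apart (adjusted p 0.404). Between the triple mutant and ssu72-C13S, 7 of 8 were lower in the triple mutant and 0 higher, where 27.5% of all genes were lower and 28.8% higher. The exception was pyp2 (log2 −0.04, adjusted p 0.763). Between the triple mutant and asp1-H397A, 6 of 8 were lower and 0 higher, where 21.1% of all genes were lower and 15.7% higher, and gpd1 and pyp2 did not pass. These 3 comparisons share libraries in pairs.

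Pairs of comparisons that share no library put the same allele change in different backgrounds, the second of each pair together with the aps1∆ allele. For ssu72-C13S the change was measured against WT and, in the triple mutant, against asp1-H397A. Opposite directions, each past the threshold, were found for 4 genes: tps1 with log2 0.71 and −0.85 (adjusted p 4.87e-06 for the second), ntp1 with 0.70 and −0.61 (adjusted p 7.25e-06), atf1 with 0.40 and −0.30, and hsp9 with 0.39 and −1.34. Of all genes tested, 25.5% were higher and 29.1% lower in the first comparison, and 15.7% higher and 21.1% lower in the second. The share of all genes with opposite calls was not computed, so the count of 4 is not read as particular to these genes. The second atf1 call was lost in some fits, as given with its values above. For gpd1 the values were 1.25 and 0.08, and for pyp2 −0.34 and −0.03, and for neither did the second pass the threshold. Those of ctt1 (0.16 and −1.52) and gpx1 (−0.15 and −0.64) passed in the second comparison alone. For asp1-H397A the change was measured against WT and, in the triple mutant, against ssu72-C13S. Here hsp9 (log2 −1.82 and −3.55) and gpx1 (−0.32 and −0.81) fell in both. The genes gpd1 (0.73 and −0.44) and atf1 (0.36 and −0.34) went from higher to lower. For pyp2 the values were −0.35 and −0.04, and the second did not pass the threshold. The values were −0.23 and −1.91 for ctt1, −0.17 and −1.73 for tps1 and 0.13 and −1.18 for ntp1, each past the threshold in the second comparison alone.

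The departure of the triple mutant from the sum of the single mutants was tested on the log2 scale. By arithmetic it equals the second value minus the first in each pair of comparisons above. The pairs and the departure are therefore not separate results. The departure contains any effect of the aps1∆ allele, so an effect of that allele and a change in the effect of the other alleles cannot be told apart. The departure was negative and past the threshold for 7 of the 8 genes, where 21.8% of all genes had a negative and 20.1% a positive one. For hsp9 the single mutants summed to log2 −1.44 and the triple mutant stood at −3.16, a departure of −1.72 (SE 0.0876, adjusted p 3.20e-08). For ctt1 the sum was −0.06 and the triple mutant −1.75, a departure of −1.68 (SE 0.155, adjusted p 2.79e-06). For tps1 the sum was 0.53 and the departure −1.56 (SE 0.116, adjusted p 5.05e-07), and for ntp1 they were 0.83 and −1.31 (SE 0.0874, adjusted p 2.09e-07). For gpd1 the sum was 1.98 and the departure −1.17 (SE 0.139, adjusted p 2.31e-05), for atf1 0.76 and −0.70 (SE 0.105, adjusted p 0.000164), and for gpx1 −0.47 and −0.49 (SE 0.0959, adjusted p 0.00118). The departures of hsp9 and ctt1 were the 115th and 121st lowest of 6189. For pyp2 the value was positive, 0.31 (SE 0.154, adjusted p 0.128), and passed the threshold without triple mutant replicate 1 (log2 0.42, adjusted p 0.0256) and without both libraries that stood apart (log2 0.40, adjusted p 0.00676).

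**Figure D3:**
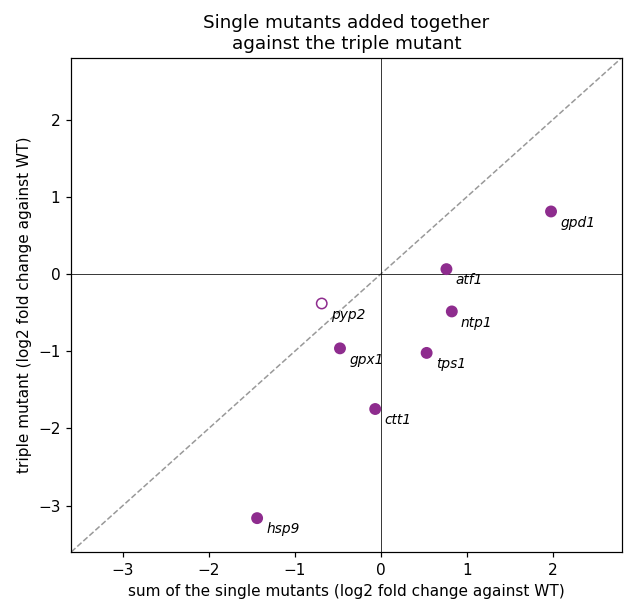
Log2 fold change of each gene in the triple mutant (y) against the summed values of both single mutants (x). On the dashed line the triple mutant would equal that sum, and filled points departed from it at an adjusted p under 0.05. Points lie below the line for 7 genes, and pyp2 lies above it.

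Other stress genes were examined as 4 lists, drawn up from known roles but with earlier results of these data known. The counts of each list are read against the shares of all genes tested. These were 25.5% higher and 29.1% lower in ssu72-C13S, 25.8% and 18.6% in asp1-H397A, and 26.2% and 25.7% in the triple mutant. Several of the counts lie near them. The first held 19 genes of the Sty1 cascade and its regulators, all of them tested. Of these 4 rose and 7 fell in ssu72-C13S (median log2 −0.11), 10 rose and 1 fell in asp1-H397A (median 0.16), and 8 rose and 4 fell in the triple mutant (median 0.06). The number that rose in the triple mutant was 5 under RLE and 3 under upper-quartile scaling, and 11 fell in ssu72-C13S without the 2 libraries that stood apart. The largest increases in asp1-H397A and the triple mutant were those of csx1 (log2 0.70 and 0.78), which encodes an RNA-binding protein that stabilises atf1 mRNA, and cmk2 (log2 0.61 and 0.75), a kinase gene. The MAP kinase gene sty1 was at 376 ± 14.7 CPM in WT and 294 ± 15.3 CPM in the triple mutant (SD, n = 3), a log2 fold change of −0.36 (adjusted p 0.00105). The gene pcr1, whose product pairs with Atf1 on DNA, had log2 values of −0.53 in ssu72-C13S (adjusted p 0.000301) and −0.51 for the triple mutant (adjusted p 0.00043). The upstream kinase gene wis4 fell in all 3 mutants (log2 −0.54, −0.23 and −0.43), and wis1, encoding the kinase that activates Sty1, fell in ssu72-C13S (log2 −0.48) and rose in asp1-H397A (0.40) and the triple mutant (0.43). In ssu72-C13S the largest increases were those of the phosphatase gene ptc1 (log2 0.39) and cmk2 (0.32), and prr1, a response regulator gene, fell most (log2 −0.55).

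The second list held 22 genes of redox defence. In ssu72-C13S 14 rose and 2 fell (median log2 0.41), in asp1-H397A 9 rose and 1 fell (median 0.14), and in the triple mutant 9 rose and 3 fell (median 0.06). The largest increases in ssu72-C13S were those of the sulfiredoxin gene srx1, from 9.36 ± 0.929 to 98.7 ± 1.61 CPM (log2 3.40, adjusted p 3.20e-10), and the glutathione S-transferase gene gst2, from 93.6 ± 5.98 to 850 ± 17.8 CPM (SD, n = 3; log2 3.18, adjusted p 3.20e-10). Neither ctt1 nor gpx1 passed the threshold in that strain. The mitochondrial superoxide dismutase gene sod2 (log2 −0.85) and the cytochrome c peroxidase gene ccp1 (log2 −0.61) fell there. In asp1-H397A srx1 fell (log2 −0.67, adjusted p 0.000641), and the transporter gene bfr1 (log2 1.11) and the peroxiredoxin gene pmp20 (log2 0.62) rose. For the triple mutant, pmp20 rose by log2 1.59 (adjusted p 3.62e-09) and bfr1 by 1.35, while zwf1, which encodes the NADPH-producing glucose-6-phosphate dehydrogenase, had −0.77 (adjusted p 4.16e-06) and the glutaredoxin gene grx1 −0.40 (adjusted p 0.000558). Under upper-quartile scaling 4 genes rose and 6 fell in asp1-H397A. The count of rising genes there was 5 under RLE, and without the 2 libraries that stood apart 4 fell in asp1-H397A and 6 fell in the triple mutant.

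The third list held 6 further genes of trehalose and glycerol metabolism. In ssu72-C13S 2 rose and 4 fell (median log2 −0.74), in asp1-H397A 2 rose and 4 fell (median −0.34), and in the triple mutant 0 rose and 3 fell (median −0.36). Of the genes of glycerol breakdown, gut2, the mitochondrial glycerol-3-phosphate dehydrogenase, had log2 values of −1.16, −0.40 and −1.58 in ssu72-C13S, asp1-H397A and the triple mutant. The glycerol dehydrogenase gene gld1 had −1.25, −0.37 and −0.91 and the dihydroxyacetone kinase gene dak2 −1.48, −0.37 and −0.66, and these values of the 3 genes all passed the threshold. The other kinase gene, dak1, fell in ssu72-C13S (log2 −0.33) and rose in asp1-H397A (log2 0.41). The trehalose-6-phosphate phosphatase gene tpp1, whose product completes trehalose synthesis, rose in ssu72-C13S (log2 0.17, adjusted p 0.0229) and asp1-H397A (log2 0.36, adjusted p 0.000299). Its triple mutant level was 238 ± 2.59 CPM, against 238 ± 7.87 CPM in WT (SD, n = 3; log2 −0.00, adjusted p 0.977). With RLE scaling 1 gene rose in ssu72-C13S, and without the 2 libraries that stood apart 1 rose in the triple mutant.

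The fourth list held 10 other stress-induced genes. In ssu72-C13S 7 rose and 0 fell (median log2 0.58), in asp1-H397A 3 rose and 4 fell (median 0.01), and in the triple mutant 3 rose and 5 fell (median −0.24). The 5 that fell in the triple mutant, ish1, hsp104, hsp16, zym1 and uvi15, had all risen in ssu72-C13S. This was seen after the values were known. Of all genes tested, 25.5% rose in ssu72-C13S and 25.7% fell in the triple mutant, and the share with both calls was not computed. Of the 5 genes, ish1, which encodes a stress-induced protein of the nuclear envelope, had log2 values of 0.38 in ssu72-C13S and −1.34 in the triple mutant (adjusted p 8.32e-08). The chaperone gene hsp104 went from 83.5 ± 5.19 CPM in WT to 143 ± 11.4 CPM in ssu72-C13S and 37.6 ± 2.22 CPM in the triple mutant (SD, n = 3; log2 0.77 and −1.15). The cation pump gene cta3 (log2 1.57) and the pyridoxal reductase gene plr1 (log2 1.53) rose most in ssu72-C13S. In asp1-H397A the metallothionein gene zym1 (log2 −0.53) and ish1 (log2 −0.55) fell most, whereas rds1 (log2 1.03) and tms1 (log2 0.54) rose most. The triple mutant had rds1 (log2 1.33) and plr1 (log2 0.54) as those that rose most. These lists have no test of their own, and their medians stand beside −0.04, −0.00 and −0.01 for all genes in the 3 mutants.

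**Figure D4:**
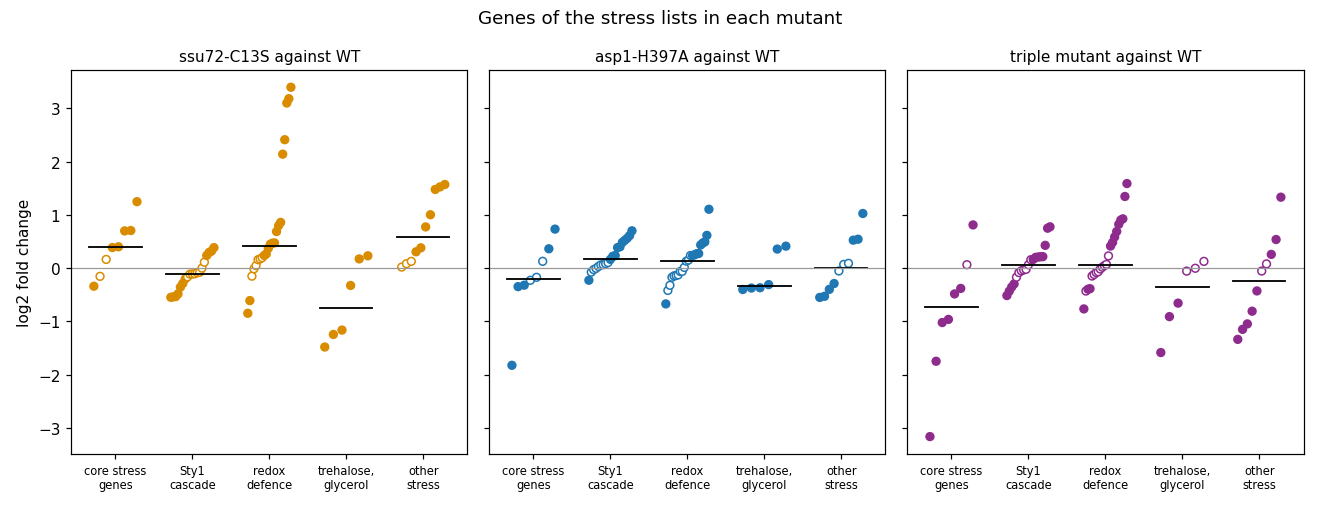
Log2 fold change of the genes of each list in the 3 mutants against WT, with the 8 core stress genes at the left. Each point is a gene, filled where the adjusted p was under 0.05, sorted by value within its list, and the black lines are medians. In the triple mutant the core stress genes have the lowest median (−0.72), and the redox list reaches 1.59.

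The genes whose pattern across the 12 libraries was most like that of each member were found by the root mean square difference of their log2 CPM, each centred on its own mean. For hsp9 this was rtc3, at a distance of 0.433, which went from 310 CPM in WT to 242 in ssu72-C13S, 105 for asp1-H397A and 21.6 for the triple mutant. For tps1 it was etr1 (0.107), for ntp1 SPBC16A3.02c (0.0730), for gpd1 gup1 (0.116) and for ctt1 SPBC19C7.04c (0.184). For gpx1 it was tcg1 (0.0731), for atf1 SPBC887.02 (0.0408) and for pyp2 SPAC227.19c (0.0784). Among the members themselves tps1 and ntp1 were the closest pair, at 0.236, and hsp9 and gpd1 the farthest, at 1.53. No member was the gene nearest to another: the nearest member ranked between 12th (tps1, seen from ctt1) and 2766th (atf1, seen from pyp2) among the 5208 candidate genes.

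Ribosomal protein genes and markers of other cell states were measured beside these results. The 131 ribosomal protein genes (rpl and rps) took 19.7% to 20.8% of all counts of a library in WT, 16.7% to 17.1% in ssu72-C13S, 18.5% to 19.2% in asp1-H397A and 19.0% to 20.1% in the triple mutant. With TMM scaling, which the calls below use, they summed to 185148 ± 8735 CPM in WT and 156232 ± 2302 CPM in ssu72-C13S. The sums were 199429 ± 14215 CPM in asp1-H397A and 220114 ± 16607 CPM in the triple mutant (SD, n = 3 each). The means of asp1-H397A and of the triple mutant were thus below WT by share of counts and above it with TMM. Of the 131 genes, 1 rose and 83 fell in ssu72-C13S (median log2 −0.29), 24 rose and 14 fell in asp1-H397A (median 0.05), and 50 rose and 11 fell in the triple mutant (median 0.14). For these counts and those of the mating genes below, the shares of all genes tested are the background. They were 25.5% higher and 29.1% lower in ssu72-C13S, 25.8% and 18.6% in asp1-H397A, and 26.2% and 25.7% in the triple mutant. The summed level of 10 mating and meiosis genes was 165 to 183 CPM in WT, 68.1 to 72.5 in ssu72-C13S, 137 to 174 for asp1-H397A and 86.5 to 91.7 for the triple mutant. Of the 9 of them tested, 1 rose and 4 fell in ssu72-C13S, 1 rose and 2 fell in asp1-H397A, and 1 rose and 7 fell in the triple mutant. The remaining gene, mde3, was at 0.278 CPM or below in every library and at 0 in at least 1 triple mutant library. The part of either group of genes in the results above was not tested.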

How the data were processed

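The authors deposited raw counts per gene, 1 column per library, per the labels. The submitters' processing notes name HISAT2 2.1.0, SAMtools, HTSeq 0.10.0, DESeq2 and the build ASM294v2, and the strand setting of the counting is not given in the sources used here. The table held 6987 rows; 1 repeated identifier with 0 counts was dropped. The RefSeq annotation at hand is of ASM294v3 and was matched by identifier (6837 of 6986 matched). It served for names, overlaps and exon lengths. The overlaps and lengths thus rest on ASM294v3 coordinates, while the processing notes name ASM294v2. No sequences were taken from it. Promoter motifs, which had been planned, were therefore not analysed here.

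Genes were filtered with edgeR's filterByExpr (minimum count 10), scaled by TMM and fitted with edgeR 4.0.16 in R 4.3.3 as a quasi-likelihood model with 1 coefficient per genotype (glmQLFit, legacy option), and Benjamini-Hochberg adjusted p-values are over all 6189 genes, with a threshold of 0.05. The SE is the absolute log2 fold change divided by the root of the F statistic. The scripts were tested on simulated data. Replicates were not duplicates (chi-square per gene 3.18 to 53.5). Named genes were the members, the gene nearest in pattern to each (mean of 5 CPM or more, log2 CPM with prior count 2), the 2 most raised and 2 most lowered genes of each list in each mutant, and the mutated genes; sty1, pcr1 outside the triple mutant, wis1, gpd2 outside ssu72-C13S, gut2, dak1, dak2, ish1, hsp104, hsp16, zym1, uvi15 and tpp1 values beyond that rule were chosen after their values were seen. The mating genes mei2, ste11 and map3 were also named after their values were seen. The members and lists were chosen with earlier results of these data known. The other settings tried were scaling by RLE or upper quartiles, DESeq2 1.42.0, different filters (none, or a mean count of 50), fits of the genotypes compared, a replicate block and left-out libraries.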

Additional observations from a re-analysis of the deposited data

Results flagged for a closer look

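For 7 of the 8 genes the triple mutant departed from the sum of the single mutants, by the test described above. With no strain carrying aps1∆ alone, an effect of that allele and a change in the effect of the ssu72 and asp1 alleles cannot be told apart. The departures on the log2 scale were −1.72 for hsp9, −1.68 for ctt1, −0.49 for gpx1, −1.56 for tps1, −1.31 for ntp1, −1.17 for gpd1 and −0.70 for atf1. Each was negative, and each kept its sign and stayed past the threshold in all 19 alternatives run.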

How the results depend on the processing

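Over the alternatives, the number of the 8 genes called was 5 to 8 in ssu72-C13S against WT, 4 to 7 in asp1-H397A against WT and 7 to 8 in the triple mutant against WT. It was 7 in each alternative for the triple mutant against ssu72-C13S, 5 to 6 against asp1-H397A, 5 to 7 for asp1-H397A against ssu72-C13S and 7 to 8 for the departure. Without the 2 libraries that stood apart, the counts were 8, 7, 8, 7, 6, 6 and 8 in that order of comparisons.

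Of 1112 recomputed log2 values, 1065 kept their direction and their side of the threshold, 7 lost the threshold, 25 gained it and 15 changed sign. The sign changes were all of values near 0 that passed no threshold on either side. Leaving out 1 library at a time, pyp2 in the triple mutant ranged from −0.111 to 0.0694 against ssu72-C13S, from −0.0926 to 0.0765 against asp1-H397A, and from −0.0714 to 0.0247 for asp1-H397A against ssu72-C13S, where atf1 ranged from −0.107 to 0.0380. Without both libraries that stood apart, pyp2 was 0.0695, 0.0598 and 0.00973 in these comparisons and atf1 0.0381. With upper quartiles, pyp2 was 0.0375 for the triple mutant against asp1-H397A, ntp1 −0.0177 for asp1-H397A against WT and atf1 −0.00925 for the triple mutant against WT. The cause was not tested.

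The main fit did not pair libraries by replicate number. Between genotypes, deviations from the genotype mean correlated at −0.430 to 0.321 for the 18 same-number pairs, 5 of them over 0.1. Pairs with different numbers had −0.505 to 0.638. Whether libraries with the same number shared a batch was not tested. With the number as a replicate block, 6 of 8 genes were called in asp1-H397A against ssu72-C13S in place of 5, and the other counts were as in the fit without it. Over all genes, 4537 were called in asp1-H397A against WT without the 2 libraries, against 2747, and 1163 in the triple mutant against asp1-H397A when only these genotypes were fitted, against 2277. Levels by library total were 0.885 to 1.10 times the TMM-scaled ones, and some overlaps between libraries depended on this choice. By library total, atf1 in the triple mutant (192, 202 and 201 CPM) lay below WT (240, 226 and 241 CPM). In asp1-H397A, tps1 (320, 335 and 315 CPM) lay below WT (407, 449 and 425 CPM). So did ntp1, at 151, 151 and 147 CPM against 166, 163 and 153 CPM. For pyp2, ssu72-C13S (19.3, 21.4 and 21.9 CPM) lay above asp1-H397A (18.4, 17.1 and 18.8 CPM). Under upper quartiles 2 genes of the Sty1 list fell in asp1-H397A, in place of 1, and 0 mating genes rose there, in place of 1.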
